A study of Mus musculus with 4 samples.

Results

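Short stretches of the mouse genome that are labelled CpG-dense and were methylated at an intermediate level in all libraries are described here. They were chosen by their values: a region of the deposited table was taken if it lay on an autosome, was at most 500 bp long and stood between 35 and 65% methylation in each of 4 libraries. This gave 250 of the 849172 regions of the table, or 0.584% of the 42842 autosomal regions of at most 500 bp. Whole-genome bisulfite sequencing was used on tissue of the CA1 field of the hippocampus from C57B6/J mice aged 117 days. Of the 4 libraries, 2 were labelled Tet2+f_Camk2aCre, read here as the Tet2+f allele together with Cre driven by the Camk2a promoter, which is active in excitatory neurons of the forebrain. The other 2 were labelled Tet2+f and carried no Cre in their label. The Tet2+f allele is thus shared by both groups, no group had Cre without it, and the tissue also holds cells in which that promoter is not active. Tet2 encodes a dioxygenase that oxidises 5-methylcytosine, and the study asked what a reduced dose of it in glutamatergic cells does. Whether libraries of 1 group are from different mice is not in the labels.

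In most tissues, CpG-dense stretches (CpG islands) are free of methylation, and the rest of the genome is methylated. An intermediate level is known from imprinted control regions, where the copy from one parent is methylated and the other is not. It is also known where cells differ from each other, as in the clustered protocadherin genes, which single neurons choose at random, and where copies of a repeat differ, as in ribosomal DNA. The level of a region is an average over its CpGs and over the molecules read, so methylation of some molecules in full and of some CpGs in all molecules give the same value. Bisulfite does not separate 5-methylcytosine from 5-hydroxymethylcytosine. No read counts were in the table, so the depth of a level cannot be given which leaves counting error unstated.

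The label "CpG-dense" was checked against promoter sequences from RefSeq (GRCm38.p6, equal to mm10 in its chromosomes), which run from 250 bases before a gene start to 50 after it. Of the autosomal regions of at most 500 bp, 1932 lay wholly inside such a window, and they held a median of 25 CpGs, with 87.8% of them holding 24 or 25. The deposited regions thus held a nearly fixed number of CpGs there, and a short region in such a window was a CpG-dense one. Short regions outside promoter windows had no sequence here, so their CpG density was not read. Over regions sharing at least 100 bases with a window, the intermediate regions had a median of 7.82 CpGs per 100 bases (15 regions). Short regions under 35% in all libraries had 9.77 (9219 regions) and those above 65% in all libraries had 6.92 (58 regions).

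Sequences are shown for promoters that intermediate regions covered in whole or in part, 2 of imprinted genes and 3 of genes of the germ line. These were picked, after their values were seen, from 21 genes with such an overlap. Other genes with one, also outside these 2 kinds, are given in a later paragraph. The Nnat and Boll stretches hold the upstream part of their window and end before the start on which that window is set. The RefSeq gene table has Boll begin further upstream, so the middle of the Boll region lies inside the gene. Each printed sequence runs 5′ to 3′ on the strand of its gene, in lower case with every CpG in capitals, and comes from RefSeq (GRCm38.p6). The stretch of Mcts2, a retrogene inside H13 that is expressed from the paternal copy, is chr2:152686898-152687177, plus strand, with 24 CpGs. The stretch of Nnat, which encodes neuronatin and lies inside Blcap, is chr2:157559828-157560052, plus strand, with 10 CpGs. The window of Rbmxl2, a testis-expressed retrogene for an RNA-binding protein, is chr7:107209195-107209494, plus strand, with 29 CpGs. The window of Meioc, a regulator of meiosis, is chr11:102665335-102665634, plus strand, with 28 CpGs. The stretch of Boll, an RNA-binding protein of the DAZ family in male germ cells, is chr1:55362867-55362978, minus strand, with 17 CpGs.
Mcts2: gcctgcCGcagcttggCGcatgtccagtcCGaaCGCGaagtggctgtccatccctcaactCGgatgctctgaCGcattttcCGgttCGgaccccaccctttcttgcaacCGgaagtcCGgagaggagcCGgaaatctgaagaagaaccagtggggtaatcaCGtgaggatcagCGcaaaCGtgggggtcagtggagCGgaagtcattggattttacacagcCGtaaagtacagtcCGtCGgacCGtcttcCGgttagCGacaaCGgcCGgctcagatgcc
Nnat: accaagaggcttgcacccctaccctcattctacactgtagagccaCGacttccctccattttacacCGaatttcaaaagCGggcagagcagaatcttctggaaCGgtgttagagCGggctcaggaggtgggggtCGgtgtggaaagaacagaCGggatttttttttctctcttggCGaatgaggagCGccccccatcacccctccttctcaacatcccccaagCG
Rbmxl2: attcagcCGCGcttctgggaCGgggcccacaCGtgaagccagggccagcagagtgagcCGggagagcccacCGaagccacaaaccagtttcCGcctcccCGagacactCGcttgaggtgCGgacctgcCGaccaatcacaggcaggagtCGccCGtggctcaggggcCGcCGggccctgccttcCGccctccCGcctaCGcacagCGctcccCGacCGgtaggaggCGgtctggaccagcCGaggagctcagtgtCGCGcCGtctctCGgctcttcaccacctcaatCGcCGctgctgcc
Meioc: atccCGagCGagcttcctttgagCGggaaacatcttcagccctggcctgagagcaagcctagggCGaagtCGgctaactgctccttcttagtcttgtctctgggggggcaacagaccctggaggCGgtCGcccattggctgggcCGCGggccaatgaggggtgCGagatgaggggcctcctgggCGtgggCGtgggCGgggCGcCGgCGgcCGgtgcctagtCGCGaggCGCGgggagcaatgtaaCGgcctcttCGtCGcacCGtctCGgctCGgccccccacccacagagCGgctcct
Boll: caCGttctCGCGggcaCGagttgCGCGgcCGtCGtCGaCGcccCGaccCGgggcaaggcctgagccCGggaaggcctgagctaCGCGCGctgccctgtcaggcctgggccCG

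Intermediate levels were rare among short regions, which fell mostly at the 2 ends of the scale. In all 4 libraries 37446 were under 35%, 4026 were above 65%, and 1016 had libraries on different sides of a limit. Another 104 lacked a value in at least 1 library. The mean of the 4 libraries lay between 35 and 65% in 661 short regions. Of these, 411 were not among the 250 because at least 1 library was outside, and in 250 of the 411 it was exactly 1. On the X chromosome 1 of 1169 short regions met the limits, and on the Y chromosome 0 of 47. Among autosomal regions longer than 500 bp, 4.87% were at 35 to 65% in each library.

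At the limits, the lowest library values inside were 35.07% in Eml6 and 35.08% in Fzd5, and the values just outside were 34.97% near Rn18s-rs5 and 34.95% in a protocadherin region. The highest inside were 65% in Henmt1 and 64.97% in Gm10094, and just outside were 65.001% in Aff3 and 65.02% in Gm20388. The longest inside was 500 bp, in Sirt4, and the shortest excluded by length alone was 501 bp, in Zc3h12d. These values describe the rule and support nothing.

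**Figure D1:**
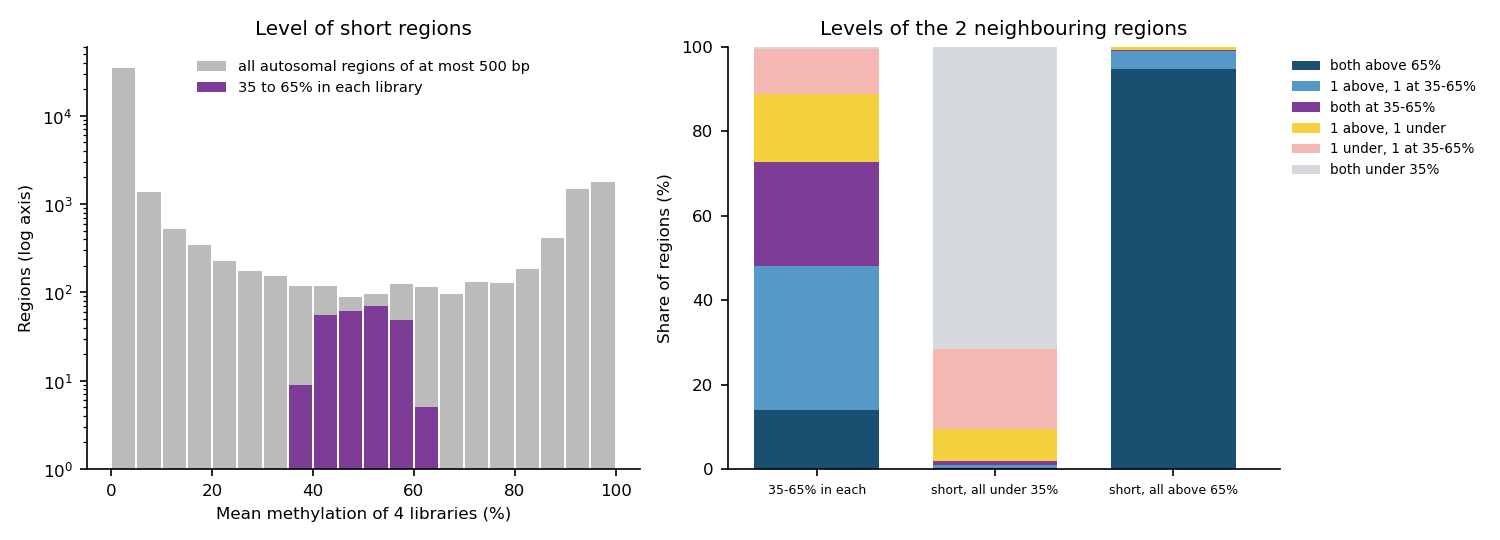
Left, the number of autosomal regions of at most 500 bp (log axis) by their mean methylation over 4 libraries in bins of 5%, with the 250 regions at 35 to 65% in each library in purple. Right, the share of regions (%) by the levels of their 2 neighbouring regions, for the 250 regions, for 37446 short regions under 35% and for 4023 of the 4026 above 65% that have a neighbour on each side; 24.8% of the 250 had both neighbours at 35 to 65%, against 0.929% and 0.199%.

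The 250 regions lay between the unmethylated and the methylated short regions in length. Their median length was 347 bp, with quartiles of 258 and 432 bp and a range of 145 to 500 bp, against a median of 251 bp for short regions under 35% and 414 bp for those above 65%. A promoter window was touched by 22 of 228 of them (9.65%), counting chromosomes with promoter sequences, against 37.6% of the short regions under 35% and 1.92% of those above 65%. Of the 148 whose named gene could be placed, 14 (9.46%) had their middle in the first 10% of the gene and 47 (31.8%) in the last 20%. For short regions under 35% these shares were 74.2% and 3.26%, and for those above 65% they were 6.85% and 36.1%. By position in the gene, the intermediate regions thus had shares near those of the methylated short regions and unlike those of the unmethylated ones. These are counts over regions, which are not independent, and no test was made.

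The levels next to the intermediate regions were mixed. In 62 of the 250 (24.8%) both neighbouring regions were at 35 to 65%, as the mean of 4 libraries, in 40 (16.0%) one was under 35% and the other above 65%, and in 35 (14.0%) both were above 65%. In 1 both were under 35%. The other 112 had 1 neighbour inside these limits and 1 outside. Of the 500 neighbours, 430 were not chosen themselves, and 272 of the 430 were longer than 500 bp. The rule left those 272 out by length, but it read the levels of the short ones and did not choose them. Of those 430, 166 (38.6%) were at 35 to 65%, 69 were under and 195 above.

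With a gap of at most 10000 bp between neighbours, the 250 regions formed 189 clusters. Of these, 154 held 1 region, 27 held 2, 4 held 4, 2 held 5, 1 held 6 and 1 held 10. The 8 clusters of 4 or more held 42 regions. They lay at Rn18s-rs5 (10 regions), in 4 stretches of the protocadherin clusters (6, 5, 4 and 4), at Rbmxl2 (5), at Meioc (4) and at Gnas (4). By 5-Mb windows, the most were found at 35 to 40 Mb of chromosome 18 (19 of 224 short regions, 8.48%), all protocadherins, and at 80 to 85 Mb of chromosome 10 (12 of 373, 3.22%). The next was 35 to 40 Mb of chromosome 17 (11 of 167, 6.59%), with the Rn18s-rs5 cluster.

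Known imprinted genes held 15 of the 250 regions, or 6%, in 11 of the 189 clusters (5.82%). The list had 95 symbols, of which 72 had a region under that name. The same list held 219 of all 42842 autosomal short regions (0.511%) and 0.254% of all autosomal regions. The 1016 short regions with libraries on different sides of a limit had a share of 6.004%, so the high share was not particular to the 250. Of the 219 short regions in imprinted genes, 135 were under 35% in all libraries, 7 were above 65%, 61 were mixed, 15 were intermediate and 1 lacked a value. Of the 61 mixed ones, 44 had a mean of 4 libraries between 35 and 65%.

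The 15 regions lay in 10 named genes, of which 9 are at, or host, a germline differentially methylated region, the kind set in the egg or sperm. The exception is Cdkn1c, a cyclin-dependent kinase inhibitor expressed from the maternal copy, with 1 region. Gnas, which encodes a stimulatory G protein subunit and has several alternative starts with opposite imprints, held 5, and its antisense transcript Nespas held 1. Impact, a regulator of translation, held 2. One region each lay in H13 (at the start of Mcts2), Blcap (at Nnat), Mest, Herc3 (at Nap1l5), Kcnq1 (within the antisense RNA Kcnq1ot1) and Commd1 (at Zrsr1). Since the deposited table names 1 gene per region, 5 of these regions stand under the name of the host, not of the imprinted gene inside it.

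In the Mcts2 region, whose sequence is given above, the level was 50.03% and 57.1% in the Tet2+f_Camk2aCre libraries and 58.8% and 58.1% in the Tet2+f libraries. The Nnat region was at 50.2% and 64.6% in the Tet2+f_Camk2aCre libraries and at 52.0% and 48.7% in the Tet2+f libraries. The groups did not overlap at Mcts2, where both Tet2+f_Camk2aCre libraries were lower, and overlapped at Nnat. In Mest, which encodes a hydrolase-like protein expressed from the paternal copy, the region from 30738251 to 30738499 of chromosome 6 was at 39.1% and 62.2% in the Tet2+f_Camk2aCre libraries and at 58.65% and 53.8% in the Tet2+f libraries. Here the widest spread was within the Tet2+f_Camk2aCre group. The Zrsr1 region, from 22972093 to 22972466 of chromosome 11, was at 62.7% and 39.9% in the Tet2+f_Camk2aCre libraries and at 60.3% and 62.4% in the Tet2+f libraries, so replicate 2 of the Tet2+f_Camk2aCre group stood apart.

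The Nap1l5 region of chromosome 6 was at 51.5% and 49.9% in the Tet2+f_Camk2aCre libraries and at 49.7% and 64.9% in the Tet2+f libraries. The Kcnq1ot1 region, from 143295133 to 143295599 of chromosome 7, was at 63.4% and 61.77% in the Tet2+f_Camk2aCre libraries and at 53.8% and 61.75% in the Tet2+f libraries. The Cdkn1c region, from 143460585 to 143460881 of the same chromosome, was at 46.9% and 45.3% in the Tet2+f_Camk2aCre libraries and at 39.6% and 35.8% in the Tet2+f libraries. Of these 3, the groups overlapped at Nap1l5, while both Tet2+f_Camk2aCre libraries were higher at Cdkn1c and, with 1 library of each group almost equal, at Kcnq1ot1. In Impact, the region from 12972832 to 12973326 of chromosome 18 was at 63.2% and 56.1% in the Tet2+f_Camk2aCre libraries and at 53.2% and 43.7% in the Tet2+f libraries. The adjoining one was at 59.2% and 54.5% in the Tet2+f_Camk2aCre libraries and at 52.6% and 46.5% in the Tet2+f libraries. In both, the groups did not overlap and the Tet2+f_Camk2aCre libraries were higher.

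The cluster of 4 regions in Gnas spanned 3249 bp, from 174297018 to 174300266 of chromosome 2. Its 8 regions of any length all had a mean of 4 libraries between 35 and 65%, of which 6 were short and 4 met the rule in each library. Over the 4, the libraries averaged 49.4% and 48.4% in the Tet2+f_Camk2aCre group and 47.0% and 49.96% in the Tet2+f group. In the region from 174298889 to 174299254, at 48.8% and 46.6% in the Tet2+f_Camk2aCre libraries and 52.4% and 52.7% in the Tet2+f libraries, the groups did not overlap, and in the other 3 they did. Unchosen regions of the span were less even. At 2635 to 2911 bp after its start, the Tet2+f_Camk2aCre libraries were at 56.25% and 69.0%, and the Tet2+f libraries at 29.8% and 6.67%. At 491 to 1030 bp the Tet2+f_Camk2aCre libraries were lower, at 47.5% and 54.7% against 64.4% and 67.6%. In the remaining unchosen ones the groups overlapped. The fifth region of Gnas, from 174328398 to 174328645, was at 44.9% and 48.2% in the Tet2+f_Camk2aCre libraries and at 53.1% and 38.2% in the Tet2+f libraries. The Nespas region, from 174284803 to 174285060, was at 47.8% and 53.2% in the Tet2+f_Camk2aCre libraries and at 50.9% and 51.0% in the Tet2+f libraries.

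**Figure D2:**
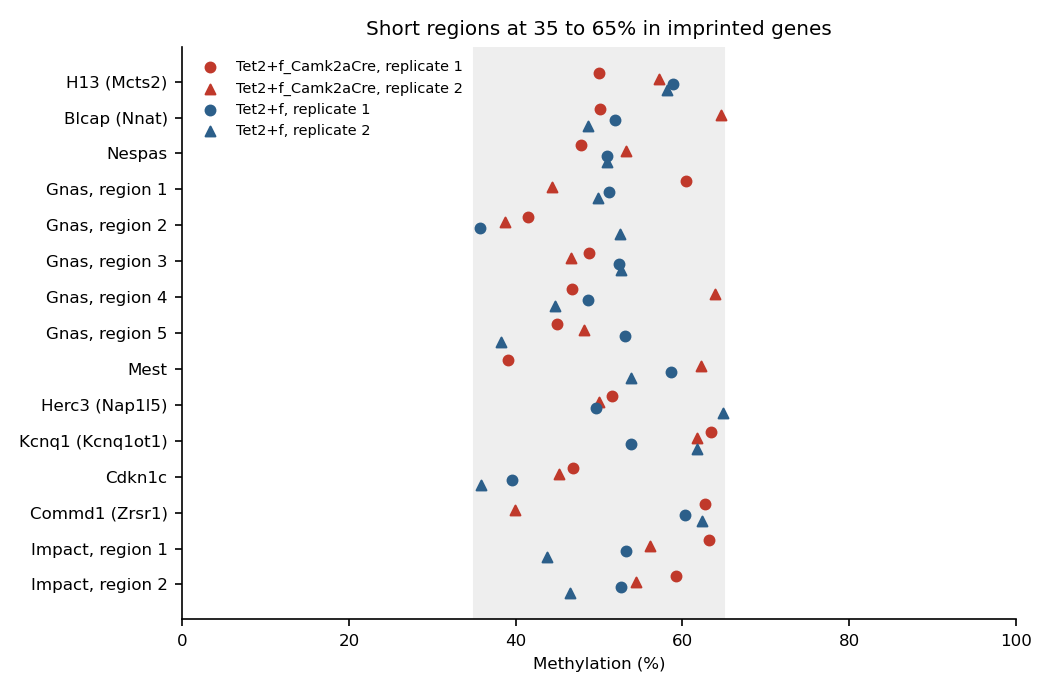
Methylation (%) of each of the 15 regions in imprinted genes, 1 row per region, with the Tet2+f_Camk2aCre libraries in red above the Tet2+f libraries in blue and the replicate by the shape of the point. The grey band is the 35 to 65% that chose the regions; the 4 libraries of 1 region lie up to 23.2 points apart (Mest).

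The rule did not use the levels of unchosen neighbours longer than 500 bp, but it read those of short ones and did not choose them. Both neighbours were at 35 to 65% in 14 of the 15, in 8 of the 10 of the Rn18s-rs5 cluster, in 8 of the 19 in protocadherins and in 32 of the 206 other regions. Counting only neighbours that were not chosen themselves, 25 of 26 (96.2%) were at 35 to 65% beside imprinted regions, and the 26 ran from 40.1 to 67.3%. Beside the Rn18s-rs5 cluster 6 of 8 (75%) were, beside protocadherin regions 15 of 30 (50%) and beside the 206 other regions 120 of 366 (32.8%). No imprinted region stood between a neighbour under 35% and one above 65%, and 39 of the 206 did. In the same order, 14 of these 26, 1 of these 8, 24 of these 30 and 233 of these 366 were longer than 500 bp. The rule thus bears on the shares at 35 to 65%, to an extent that differs by class. An unchosen region between 2 chosen ones is counted for each of them, as those starting at 39844614 and 39845262 are at Rn18s-rs5. Neighbours of 1 cluster are not independent, and no test of the difference in shares was made.

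The rule bounds the spread of a region over the libraries, which is given as a description. The difference between the highest and lowest library had a median of 15.2 points over the 15, of 8.31 points over the protocadherin regions, of 5.53 points over the Rn18s-rs5 cluster and of 12.2 points over the others. The ranges of these classes overlapped, at 5.33 to 23.2 points over the 15 and 1.57 to 28.1 points over the others. The rule allows at most 30 points. The most even of all 250 regions, in Ptprs, spanned 1.57 points, and the least even, in Rps6ka4, spanned 28.1 points. Read depth is unknown, and its part in this spread was not tested.

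Most listed imprinted genes had no region under the rule. Of the 54 listed genes with a short autosomal region, 10 held an intermediate one. At any length, imprinted genes held 133 regions at 35 to 65% in each library, and in 37 genes all of those were longer than 500 bp. For example Peg3, a zinc finger gene expressed from the paternal copy, had 2 short regions, both mixed, and its shortest longer region inside the limits was 1037 bp long. In Snrpn, which encodes a splicing protein, and in the non-coding genes Airn and Meg3, no short region was present, and the shortest regions inside the limits were 1522, 1567 and 605 bp long. Grb10, an adaptor protein gene, had 13 short regions, of which 8 were under 35% and 5 were mixed. Plagl1, a zinc finger gene, had 3, and Peg10, a retrotransposon-derived gene, had 5, with no region of any length inside the limits in either.

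The clustered protocadherins held 19 of the 250 regions (7.60%), against 85 of all 42842 autosomal short regions (0.198%). These genes encode adhesion proteins of neurons. Each variable exon has its own start, and a cell uses few of them. Of the 85 short regions, 18 were under 35% in all libraries, 21 were above 65%, 27 were mixed and 19 were intermediate. The deposited table puts the 19 under 6 names, Pcdhac1 and Pcdhga11 among them, because the transcripts are nested. Placed by the nearest gene start upstream in the RefSeq gene table, 4 lay in Pcdha genes, 4 in Pcdhb genes and 11 in Pcdhg genes. Near-identical exons can share reads, so the level of a single gene is uncertain.

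The 4 Pcdhb regions lay at nearly the same place of 4 adjacent genes. In Pcdhb18, Pcdhb19, Pcdhb20 and Pcdhb21 the middle of the region was 1989, 1993, 1997 and 1937 bp after the gene start, in the late part of a single exon. Pcdhb18 was at 60.6% and 60.5% in the Tet2+f_Camk2aCre libraries and at 45.0% and 61.5% in the Tet2+f libraries. Pcdhb20 was at 57.6% and 56.3% in the Tet2+f_Camk2aCre libraries and at 43.5% and 54.7% in the Tet2+f libraries. In both genes replicate 1 of the Tet2+f group was the low library. The groups overlapped at Pcdhb18 and did not at Pcdhb20. Pcdhb19 was at 55.8% and 56.5% in the Tet2+f_Camk2aCre libraries and at 51.5% and 60.6% in the Tet2+f libraries. Pcdhb21 was at 47.1% and 52.6% in the Tet2+f_Camk2aCre libraries and at 54.3% and 52.5% in the Tet2+f libraries. The groups overlapped at both.

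The Pcdha regions lay nearer the gene start. Their middles were 256 bp after the start of Pcdha2, 352 bp after that of Pcdha3, 483 bp after that of Pcdha4 and 1631 bp after that of Pcdha5. Pcdha2 was at 38.2% and 44.4% in the Tet2+f_Camk2aCre libraries and at 38.4% and 44.0% in the Tet2+f libraries. Pcdha4 was at 38.9% and 49.3% in the Tet2+f_Camk2aCre libraries and at 54.6% and 47.0% in the Tet2+f libraries. In the Pcdhg cluster 9 of the 11 regions were in Pcdhgb genes, Pcdhgb5 with 3, Pcdhgb6 and Pcdhgb7 with 2 each and Pcdhgb4 and Pcdhgb8 with 1 each, and all had their middle between 1485 and 2149 bp after the start. The other 2 were in Pcdhga8 and Pcdhga12, at 648 and 1239 bp. Over all 19, the libraries averaged 49.6% and 50.6% in the Tet2+f_Camk2aCre group and 50.2% and 50.8% in the Tet2+f group, a difference of -0.355 points.

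**Figure D3:**
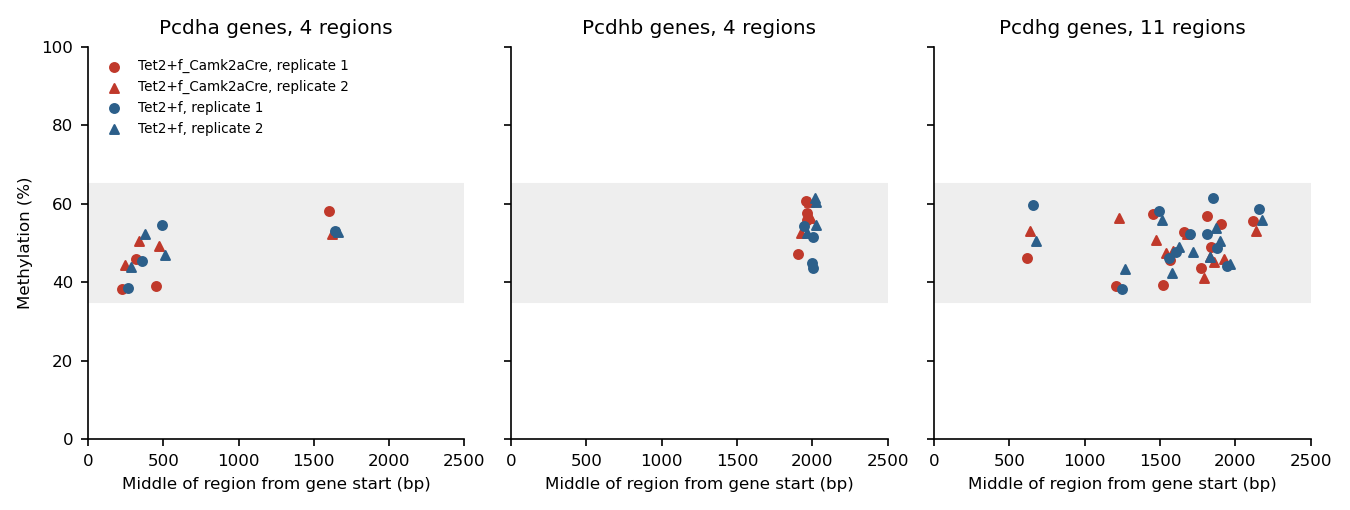
Methylation (%) of the 19 protocadherin regions against the distance of their middle from the start of the nearest upstream gene (bp), by gene family, with the Tet2+f_Camk2aCre libraries in red, the Tet2+f libraries in blue and the replicate by shape. The 4 Pcdhb regions stand together at 1937 to 1997 bp, and the grey band marks 35 to 65%.

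The largest cluster, of 10 regions and 4680 bp, lay from 39844271 to 39848950 of chromosome 17, at Rn18s-rs5, a sequence related to 18S ribosomal RNA that the RefSeq gene table lists as a pseudogene. Of the 10, 1 overlapped Rn18s-rs5, from 39846354 to 39848202, and 1 lay downstream of it in AY036118, a non-coding gene. The other 8 lay upstream of both. The deposited table names no gene for any of them. Ribosomal DNA is present in many near-identical copies, and reads from other copies cannot be told apart from reads of this one. All 20 regions of the span were short, 6 of them had a mean under 35% and none had a mean above 65%. Downstream the next region, of 5207 bp, had a mean of 82.0%. Upstream 4 more short regions had means of 29.8 to 37.9%, before regions of 1554 and 4766 bp with means of 54.3% and 69.8%.

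Within the cluster the levels were low in the window and even. The mean of 4 libraries ran from 39.0 to 50.4% with a median of 40.8%. Over the 10 regions the libraries averaged 45.3% and 39.1% in the Tet2+f_Camk2aCre group and 42.2% and 40.1% in the Tet2+f group. Replicate 1 of the Tet2+f_Camk2aCre group was the highest, by most in the region from 39845667 to 39845827, at 61.4% and 43.3% in the Tet2+f_Camk2aCre libraries and at 49.2% and 47.8% in the Tet2+f libraries. The group difference over the 10, 1.08 points, was smaller than the spread of 4.40 points (SD, n = 2) between the Tet2+f_Camk2aCre libraries.

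**Figure D4:**
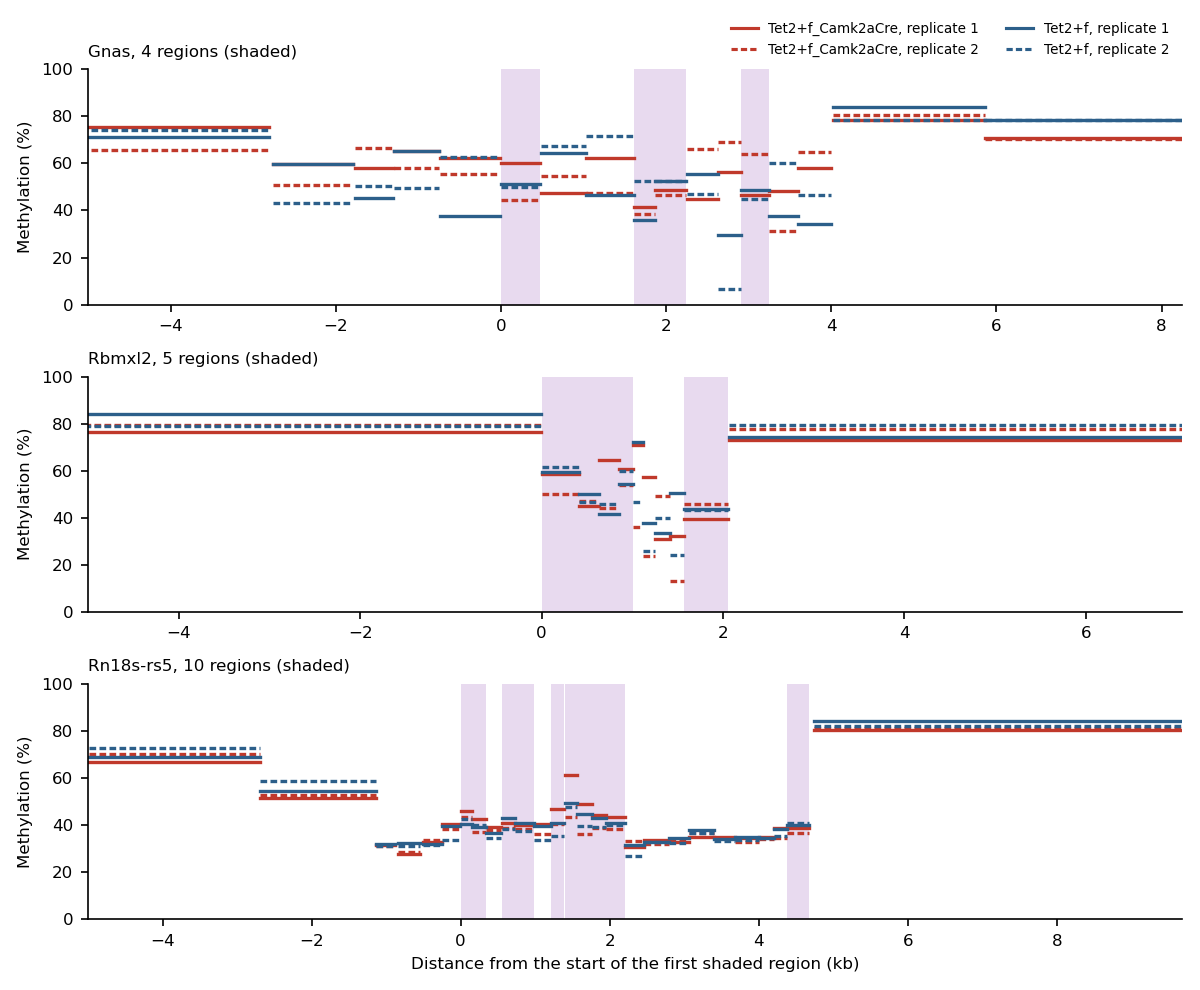
Methylation (%) of every region of the table around 3 clusters, against the distance from the start of the first shaded region (kb); each line is 1 region in 1 library, red for Tet2+f_Camk2aCre and blue for Tet2+f, solid for replicate 1 and dashed for replicate 2, and the chosen regions are shaded. At Rn18s-rs5 the 4 libraries run close together beside a downstream flank at 82.0%, and at Gnas and Rbmxl2 they spread more.

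Genes of the germ line made up the other clusters of 4 or more. At Rbmxl2, a single-exon gene, 5 regions spanned 2062 bp, from 107208998 to 107211059 of chromosome 7, and 9 short regions in all lay in that span. The libraries averaged 53.7% and 48.2% in the Tet2+f_Camk2aCre group and 49.9% and 51.4% in the Tet2+f group over the 5. The first 2 of them cover the whole promoter window printed above. They were at 58.6% and 50.1% in the Tet2+f_Camk2aCre libraries and at 59.6% and 61.4% in the Tet2+f libraries upstream, and at 44.8% and 47.0% in the Tet2+f_Camk2aCre libraries and at 49.98% and 46.5% in the Tet2+f libraries at the start. At Meioc, which the deposited table calls Gm1564, 4 regions in a row spanned 1024 bp, from 102665324 to 102666347 of chromosome 11. They averaged 45.9% and 49.7% in the Tet2+f_Camk2aCre libraries and 48.6% and 45.4% in the Tet2+f libraries, and the groups overlapped.

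The 22 regions that touched a promoter window lay at 21 genes, and those given here were singled out after their values were seen. Besides Mcts2, Nnat and Nap1l5 these were Rbmxl2, Meioc, Boll, Smc1b (a cohesin subunit of meiosis), Ribc2, Henmt1 (a methyltransferase of piRNAs), Iho1 (a factor of meiotic recombination), Tbx1 (a developmental transcription factor), Krt8 (a keratin), Mtnr1b (a melatonin receptor) and 8 predicted or unnamed genes. Boll was at 43.2% and 61.7% in the Tet2+f_Camk2aCre libraries and at 62.8% and 54.5% in the Tet2+f libraries. Iho1 was at 55.6% and 55.1% in the Tet2+f_Camk2aCre libraries and at 53.0% and 38.8% in the Tet2+f libraries. The Tbx1 region was at 44.3% and 46.4% in the Tet2+f_Camk2aCre libraries and at 36.5% and 37.0% in the Tet2+f libraries. At Boll the groups overlapped, and at Iho1 and Tbx1 both Tet2+f_Camk2aCre libraries were higher.

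The motif TGCCGC, bound when methylated by ZFP57, a zinc finger protein that keeps imprints in the early embryo, was searched on both strands of these windows. It was in 6 of the 22 windows (27.3%), those of Mcts2, Nnat, Nap1l5, Boll, Henmt1 and Gm40862, and all 3 windows of imprinted genes held it. In Nnat, Boll and Gm40862 it lay in the part of the window outside the intermediate region, so the Nnat and Boll stretches printed above do not hold it. Of all 32851 windows 11.6% held it. Windows differ in CpG content, with a median of 27 CpGs in the 22 and 7 in all, and of the 11378 windows with at least 15 CpGs 25.1% held it. A match describes the letters and is not a bound site.

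The remaining 206 regions lay in 173 clusters, and 164 of them were under 134 gene names. Clusters of 2 included Hic1, a transcriptional repressor, at 58.5% and 55.9% in the Tet2+f_Camk2aCre libraries and at 56.7% and 47.5% in the Tet2+f libraries in its first region. They also included Ggn, a gene of gametogenesis, at 53.6% and 60.4% in the Tet2+f_Camk2aCre libraries and at 45.0% and 52.7% in the Tet2+f libraries in the first of its regions. Both were named after their values were seen. The groups overlapped at Hic1, and in this first region of Ggn both Tet2+f_Camk2aCre libraries were higher. The second region of Ggn was at 48.9% and 56.6% in the Tet2+f_Camk2aCre libraries and at 53.2% and 48.8% in the Tet2+f libraries, where the groups overlapped. Zinc finger genes named Zfp held 8 of the 250 (3.20%), against 1.44% of all autosomal short regions, and predicted genes named Gm held 16 (6.40%), against 2.91%. On chromosome 12, 7 of 117 short regions between 15 and 20 Mb and 5 of 140 between 20 and 25 Mb were intermediate.

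Lists of cell type markers held 1 of the 250 (0.4%), against 92 of all 42842 autosomal short regions (0.215%). Of 52 markers of neurons, astrocytes, oligodendrocytes, microglia and endothelial cells, 24 had a short autosomal region, and 1, Mbp, held an intermediate one. Mbp encodes myelin basic protein of oligodendrocytes. Its region, in the last 20% of the gene, was at 39.6% and 50.8% in the Tet2+f_Camk2aCre libraries and at 62.3% and 48.4% in the Tet2+f libraries, and the groups overlapped. Most short regions of the markers were under 35% in all libraries, 28 of 30 for neurons and 19 of 19 for astrocytes. A share of cells of each type cannot be read from these levels.

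No region of the table passed the test of the group difference, and so none of the 250 did. In limma, fitted on a logit scale, the threshold of 0.05 after Benjamini-Hochberg adjustment was met by 0 of 849014 regions, a percent called of 0, with 0.937 as the lowest adjusted p. Without adjustment, a p under 0.05 was found for 18 of the 250 (7.20%) and for 4.6% of all regions. On the percent scale it was 32 of the 250 (12.8%), against 4.96% of all regions. Fitted on short autosomal regions alone it was 18 (7.20%), against 8.33% of all regions fitted. In the fit over all regions, 6 of the 250 had an unadjusted p under 0.05 and were higher in Tet2+f_Camk2aCre, against 2.25% of all regions. Another 12 of the 250 had one and were lower, against 2.35% of all regions. The rule bounds every library, so these shares are given as they stand and nothing is read from them. In 30 of the 250 both Tet2+f_Camk2aCre libraries were above both Tet2+f libraries (12%, and 15.9% of all regions), and in 42 both were below (16.8%, and 16.8% of all regions). In 178 the groups overlapped.

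The mean over the 250, which the rule holds near the middle of its limits in every library, is a description only. It was 49.8% and 49.5% in the Tet2+f_Camk2aCre libraries and 50.4% and 49.1% in the Tet2+f libraries, a difference of -0.106 points, and 130 of the 250 were higher in Tet2+f_Camk2aCre. The SD between the 2 libraries was 0.235 points in the Tet2+f_Camk2aCre group and 0.895 points in the Tet2+f group. Over the 15 imprinted regions the difference was 0.912 points, with 8 of 15 higher. Over all autosomal short regions it was 0.180 points. Leaving out replicate 1 of the Tet2+f group turned the difference over the 250 to 0.528 points, and leaving out replicate 2 of that group turned it to -0.739 points. Leaving out replicate 2 of the Tet2+f_Camk2aCre group turned it to 0.0605 points. Without replicate 1 of that group it was -0.272 points.

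For each direction, the 5 regions lowest in unadjusted p are given next, and all had a limma adjusted p of 0.937. The region in Zfp316, a zinc finger gene on chromosome 5 (143253300 to 143253492), was at 59.95% and 60.06% in the Tet2+f_Camk2aCre libraries and at 42.8% and 42.0% in the Tet2+f libraries, a difference of 17.6 points. The region in Sema5b, an axon guidance gene, was at 58.3% and 54.6% in the Tet2+f_Camk2aCre libraries and at 39.9% and 45.1% in the Tet2+f libraries. The region in Sez6l2, a membrane protein gene of neurons, was at 62.5% and 60.5% in the Tet2+f_Camk2aCre libraries and at 50.6% and 48.6% in the Tet2+f libraries. In these 3 both Tet2+f_Camk2aCre libraries were higher. So it was in 2 regions outside named genes, on chromosome 8 (66603622 to 66604075, 12.4 points) and chromosome 5 (111957872 to 111958294, 14.8 points).

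In the other direction, the region in Eml6, a gene for a microtubule-associated protein on chromosome 11 (29825204 to 29825468), was at 35.1% and 39.2% in the Tet2+f_Camk2aCre libraries and at 55.7% and 57.7% in the Tet2+f libraries, a difference of -19.5 points. The region in Myorg, a glycosidase gene that the deposited table calls AI464131, was at 36.2% and 41.9% in the Tet2+f_Camk2aCre libraries and at 53.9% and 59.0% in the Tet2+f libraries. The region named Zfp652, which by RefSeq overlaps Abi3 and Phospho1, was at 42.2% and 41.0% in the Tet2+f_Camk2aCre libraries and at 54.8% and 64.7% in the Tet2+f libraries. In all 3, which were picked by their p, both Tet2+f_Camk2aCre libraries were lower. The Myorg and Zfp652 regions each had another chosen region close by, where the groups differed little. From 41499147 to 41499450 of chromosome 4 the difference was -1.94 points. From 95831021 to 95831317 of chromosome 11 it was 0.233 points. The region in Map7d1 (called Mtap7d1 in the table) differed by -14.5 points and a region outside genes on chromosome 13 (65311274 to 65311705) by -16.8 points. Tet2 itself held no intermediate region. Its 1 short region, of 223 bp, was at 0.680% and 0% in the Tet2+f_Camk2aCre libraries and at 0% in both Tet2+f libraries, which does not test whether the gene was deleted.

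**Figure D5:**
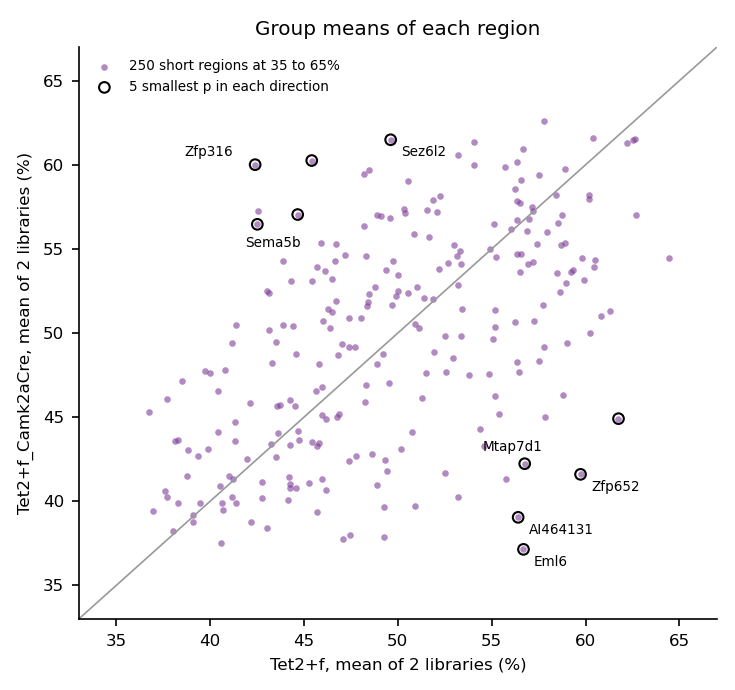
Mean methylation (%) of the 2 Tet2+f_Camk2aCre libraries (vertical axis) against that of the 2 Tet2+f libraries (horizontal axis) for each of the 250 regions; the line marks equal levels, and the circles are, for each direction, the 5 regions lowest in unadjusted p, named where they have a gene. The differences run from -19.5 points (Eml6) to 17.6 points (Zfp316).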

How the data were processed

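Values were deposited by the authors as percent methylation, 1 per region and library. The submitters' processing notes list FastQC 0.11.5, Trim Galore 0.4.5, Bismark 0.19.0, edgeR and mm10, with no order or role. The sources used here do not give how regions were drawn or whether low coverage was filtered. Columns were matched to libraries by title. A value was missing in 158 of 849172 regions, and limma 3.58.1 (R 4.3.3) was fitted to the other 849014. The scale was log2((level + 0.01) / (1 - level + 0.01)), with Benjamini-Hochberg adjustment and a threshold of 0.05, and the script was also tested on simulated data. The p-values rest on the spread of 2 libraries a group, which limma moderates towards that of all regions fitted. The spread between libraries may be technical. The regions, lists and named genes were chosen with earlier results of these data known. Named were imprinted genes with a region, clusters of 3 or more, the 5 smallest p in each direction, regions at the limits, Tet2, and markers and protocadherins with a region. That rule allowed 4 protocadherins, and more are given here. Gene positions and promoter sequences are from RefSeq (GRCm38.p6), and chromosome 18 promoters were not used here. Alternatives varied length, limits, gap, list, scale and libraries. The difference between replicates in 1 group and that in the other had a correlation of 0.00648 over all regions. This cannot show whether replicate numbers pair libraries, since noise in each region can hide a pairing. The main fit did not use replicate numbers, and a fit blocked on them is given below.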

Additional observations from a re-analysis of the deposited data

How the results depend on the processing

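The number of regions depends on the limits, by construction. With at most 300 bp there were 95 in 69 clusters, with at most 1000 bp 2527 in 2208 clusters, with 40 to 60% 81 in 73 clusters, and with 30 to 70% 469 in 324 clusters. With the limits on the mean of 4 libraries, an alternative chosen after seeing the data, there were 661 in 436 clusters. With 1 library left out there were 300 to 321 in 222 to 244 clusters. Other gaps and consecutive regions gave 182 to 215 clusters. The share in imprinted genes was 1.54% with at most 1000 bp. It was 4.94 to 8.93% under the other alternatives run, of which that without protocadherin and Rn18s-rs5 regions (6.79%) was also chosen after seeing the data, and 6.25 to 8% with 1 library left out. The group difference of the mean, -0.106 points, ranged from -0.739 to 0.528 points with 1 library left out and changed sign in 2 of the 4 cases, each within the SD between replicate means of 0.655 points of the value with all libraries. It was also above 0 with at most 300 bp (0.265 points), 40 to 60% (0.0886 points), 30 to 70% (0.197 points) and limits on the mean (0.0351 points). A fit blocked on replicate number called 0 regions in limma (smallest adjusted p = 0.954, and 34058 at an unadjusted p under 0.05, against 39068 without the block), as under the other 8 alternatives of the test (smallest adjusted p from 0.291, over short autosomal regions alone, to 0.950). None of 90 values of the 10 regions named by p changed sign or passed. Depth per region is unknown and limits every level.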

Other observations

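On the X chromosome the 1 short region at 35 to 65% in each library lay in Mid1, which encodes a ubiquitin ligase of microtubules and spans the edge of the region that X and Y share in this strain. From 169986882 to 169987165 it was at 58.2% and 56.8% in the Tet2+f_Camk2aCre libraries and at 37.5% and 42.8% in the Tet2+f libraries. Both Tet2+f_Camk2aCre libraries were higher, no test was made for this region alone, and it was singled out after its value was seen.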
